A study of Mus musculus with 2 samples.

Results

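The cyclin-dependent kinase inhibitors of the Ink4 and Cip/Kip families were examined in Menin KO and Menin WT CD4 T cells of the mouse. The members were the 4 Ink4 genes Cdkn2a, Cdkn2b, Cdkn2c and Cdkn2d and the 3 Cip/Kip genes Cdkn1a, Cdkn1b and Cdkn1c. They were found through the RefSeq transcript that the scanner files attach to each non-control probe, which gave 8 probes for all 7 genes, of 41174 probes and 18434 named genes in all. Probes with other kinds of accession were not named here, so further probes for these genes may exist on the array.

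Total RNA of Menin KO and Menin WT CD4 T cells from spleens of female C57BL/6J mice was measured on 1 one-colour array a genotype. Naive cells had been stimulated for 2 days with immobilised antibody to the T cell receptor β chain (3 µg/ml) and antibody to CD28 (1 µg/ml) with IL-2 (2.5 ng/ml), and both cultures then spent 3 more days in IL-2. How Menin was deleted, the mice's age and the number of animals behind each array are not given in the sources used here. With 1 array a genotype no difference was tested, and every value compares these 2 RNA samples.

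Ink4 proteins bind the kinases Cdk4 and Cdk6 and keep them from pairing with D-type cyclins, while Cip/Kip proteins bind cyclin and kinase together and chiefly block Cdk2. By holding these kinases back they leave the retinoblastoma protein and its relatives active, so that E2F factors stay silent and the cell does not enter S phase. Cdkn2a and Cdkn2b lie side by side and are known as Polycomb-repressed genes that become active in senescent cells, and in mouse pancreatic islets Menin and its MLL partner are known to promote transcription of Cdkn1b and Cdkn2c. The series is titled for the part of Menin and Bach2 in the senescence of CD4 T cells, the question to which this family belongs.

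Promoter windows of the 3 Ink4 genes that differed most between the arrays are shown here, since Cdkn2a and Cdkn2b moved together and Cdkn2c moved the other way. They were taken from RefSeq on GRCm38.p6, run 5′ to 3′ on the gene's own strand, and span 250 bases before to 50 after the start of transcription. Cdkn2a has 2 windows, the upstream one for the transcript of p19Arf and the downstream one for that of p16Ink4a. The window of the upstream of the 2 listed Cdkn2c starts is shown. Capitals mark every match on either strand to a motif searched: the GC box GGGCGG, the E2F site TTTNNCGC, the cyclic AMP response element TGACGTCA, the AP-1 site TGANTCA, the Maf recognition element (an AP-1 site with its Maf-bound flank), the E-box CACGTG and the TATA box TATAAA.
Cdkn2b, chr4:89310983-89311282, minus strand: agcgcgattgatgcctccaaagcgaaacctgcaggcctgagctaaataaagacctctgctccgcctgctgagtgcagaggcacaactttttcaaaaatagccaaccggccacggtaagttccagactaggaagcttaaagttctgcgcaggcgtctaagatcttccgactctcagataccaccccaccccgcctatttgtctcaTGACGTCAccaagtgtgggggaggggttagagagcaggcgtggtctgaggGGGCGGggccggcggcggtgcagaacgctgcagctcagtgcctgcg
Cdkn2a upstream start, chr4:89294570-89294869, minus strand: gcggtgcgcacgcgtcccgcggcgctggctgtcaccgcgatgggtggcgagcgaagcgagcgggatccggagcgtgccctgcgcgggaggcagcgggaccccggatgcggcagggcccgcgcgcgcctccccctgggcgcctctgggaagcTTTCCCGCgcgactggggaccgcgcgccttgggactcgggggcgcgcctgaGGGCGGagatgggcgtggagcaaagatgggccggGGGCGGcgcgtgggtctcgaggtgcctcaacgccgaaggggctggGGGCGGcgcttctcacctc
Cdkn2a downstream start, chr4:89282143-89282442, minus strand: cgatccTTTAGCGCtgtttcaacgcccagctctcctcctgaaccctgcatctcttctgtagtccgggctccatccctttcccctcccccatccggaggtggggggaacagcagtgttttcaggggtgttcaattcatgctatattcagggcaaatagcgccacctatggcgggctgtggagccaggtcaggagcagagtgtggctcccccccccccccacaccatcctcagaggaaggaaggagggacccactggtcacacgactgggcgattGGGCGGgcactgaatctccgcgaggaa
Cdkn2c upstream start, chr4:109666707-109667006, minus strand: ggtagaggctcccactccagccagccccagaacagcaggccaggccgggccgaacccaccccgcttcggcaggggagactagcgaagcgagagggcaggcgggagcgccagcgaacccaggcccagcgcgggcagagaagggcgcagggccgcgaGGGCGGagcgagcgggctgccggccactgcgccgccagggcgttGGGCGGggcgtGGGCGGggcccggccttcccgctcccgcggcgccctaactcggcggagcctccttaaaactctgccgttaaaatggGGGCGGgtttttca

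Each of these 4 windows held at least 1 GC box, a match found in 35.7% of 32851 promoter windows of the same length. The cyclic AMP response element stood in the Cdkn2b window (1.79% of all windows) and in neither Cdkn2a window. An E2F site stood in both Cdkn2a windows (5.17% of all windows), and the Cdkn2c window had 4 GC boxes. GC boxes were also found among the other members, with 5 in Cdkn2d, 1 in Cdkn1b, 2 in the downstream Cdkn1a window and 0 in the upstream one. No AP-1 site and no Maf recognition element, the letters bound by Bach factors, was found in any of the 9 windows listed for the members (7.81% and 0.423% of all windows hold one), which says only that these letters are not in these windows. The share of bases that are G or C was 57.7% for Cdkn2b, 77.0% for the upstream and 60.3% for the downstream Cdkn2a window and 73.3% for the upstream Cdkn2c window, against a median of 52.7% over all windows. The window of the other Cdkn2c start, not printed, had 44.0% and held an E-box (7.15% of all windows) and no GC box. The share of G or C was 66.3% for Cdkn2d, 62.0% for Cdkn1b, and 54.7% and 64.7% for the upstream and downstream Cdkn1a windows. No window was listed for Cdkn1c.

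Among the 7 genes, Cdkn2b and Cdkn2a were more than 10-fold higher in Menin KO cells, Cdkn2c was 3.22-fold lower, and Cdkn1a, Cdkn1b, Cdkn1c and Cdkn2d were less than 2-fold apart. Thus 2 of 7 genes were at least 2-fold higher and 1 was at least 2-fold lower, where 10.8% and 5.14% of 13510 named genes were. Counted by probe, 2 of 8 were at least 2-fold higher and 2 at least 2-fold lower, because the second Cdkn1b probe passed the limit, against 8.54% and 6.17% of 26073 probes. With so few members these shares are counts and no more. A fold here is the ratio of processed signals after each array was scaled to its own 75th percentile (650 in KO, 644 in WT), and the median named gene had a log2 difference of -0.01. All 8 probes were well above background on both arrays, so no member value is a bound. Of all named genes 2-fold apart, 67.8% were higher in KO, and after normexp correction of the background 26.3% were. With the aberrant local backgrounds (over 200, 6 spots on WT) replaced before normexp, the share was 67.3%.

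The gene named in the genotype was lower on the array labelled KO. Men1, which encodes Menin, had a signal of 459 in KO and 1081 in WT, a 2.38-fold lower level in KO (log2 difference -1.25). Whether its 1 probe lies in the deleted part is not known here. The genes listed as markers of the labelled cell type were read on both arrays. Cd3d had 55593 in KO and 62714 in WT, and Cd4 itself 279 in KO and 443 in WT (log2 difference -0.68). None of these 9 genes was at least 2-fold apart (15.9% of all named genes were), the farthest being Cd247 (-0.93). Apart from Cd4 they are genes of T cells in general, so the list does not separate CD4 from CD8 T cells. The CD8 marker Cd8a was 10.2-fold higher in KO (log2 difference 3.35).

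Some probes were printed 10 times on each array, which gives a technical spread. Over 146 such probes, the difference between the arrays had a pooled SD of 0.16 from spot to spot on the log2 scale. It was 0.05 for the 110 probes with a signal of at least 100 and 0.31 for the 36 dimmer ones. This spread holds scatter on the glass alone, and leaves out mice, cultures, RNA preparations and labelling. Spots that do not overlap between the arrays therefore show a difference beyond that scatter and no more. How many of the other repeated probes had no overlap was not counted. For probes printed once, the error given is the scanner software's own estimate.

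**Figure D1:**
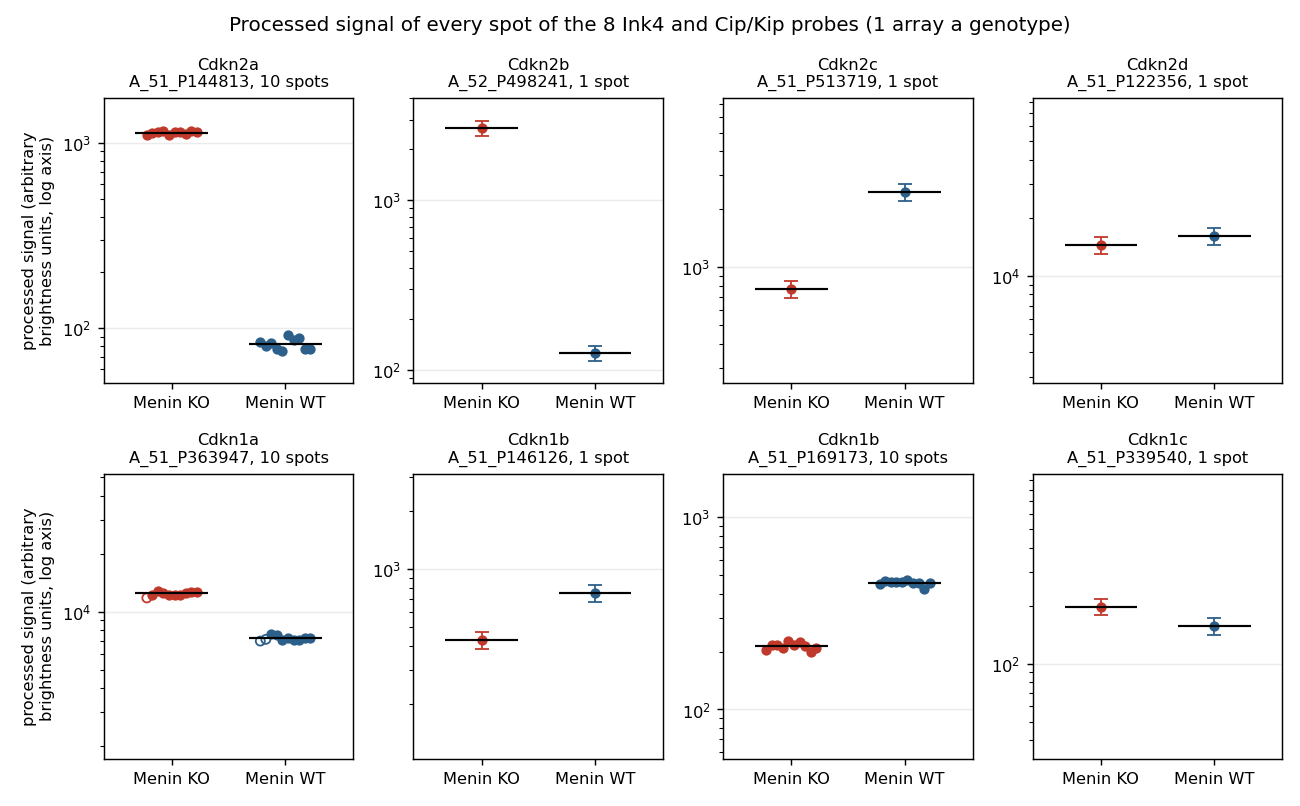
Processed signal (log axis, arbitrary brightness units, each panel with its own scale) of every spot of the 8 probes, Menin KO left and Menin WT right. Black bars are means over usable spots, open circles are spots flagged as outliers, and error bars on single spots are the scanner software's estimate. The spots of Cdkn2a, Cdkn1a and the second Cdkn1b probe do not overlap between the arrays. The share of other repeated probes without overlap was not counted.

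Cdkn2b encodes p15Ink4b, an Ink4 inhibitor known for its induction by TGF-β. Its probe (A_52_P498241) was printed once and gave a processed signal of 2685 ± 269 in KO and 125 ± 12.8 in WT (software error). The KO signal was 21.3-fold higher, a log2 difference of 4.41. In WT cells the spot itself, at 187.5, stood above a local background of 48, so the gene was dim but read in WT and bright in KO. Only 43 of the 13510 named genes, Cdkn2b included, had a difference at least as large in that direction (0.318%). After normexp, another correction of the background, the fold was 9.77 (log2 difference 3.29, or 3.75 with aberrant backgrounds replaced).

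Cdkn2a encodes both p16Ink4a, which blocks Cdk4 and Cdk6, and p19Arf, which is read in another frame and protects p53 by binding Mdm2. Its probe (A_51_P144813) was printed 10 times and carries the RefSeq transcript of p19Arf. The later exons are common to both mRNAs and the probe's sequence is not used here, so p16Ink4a and p19Arf cannot be told apart. The 10 spots ran from 1099 to 1166 with a median of 1142 in KO, and from 75.7 to 91.7 with a median of 81.4 in WT. Every KO spot was far above every WT spot. The mean over spots was 1136 ± 24.0 in KO and 82.0 ± 5.51 in WT (SD, 10 spots of 1 array each). This made a 13.8-fold higher level in KO, with a log2 difference of 3.78 that varied from 3.64 to 3.91 across the 10 spot pairs (SD 0.10). The distance was many times the scatter of spots. A total of 101 named genes (0.748%) were as far apart in that direction. After normexp correction the fold was 5.13 (log2 difference 2.36, or 2.97 with aberrant backgrounds replaced).

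Cdkn2c encodes p18Ink4c, an inhibitor of Cdk6 in particular that restrains T cell proliferation in mice. It went opposite to its 2 relatives, with a signal of 770 ± 77.1 in KO and 2456 ± 246 in WT (1 spot each, software error). The level was 3.22-fold lower in KO, a log2 difference of -1.69. Both signals were far above the local background of 50.5 in KO and 47.5 in WT. A total of 240 named genes (1.78%) were at least as far apart in that direction. No alternative processing turned the sign or brought it under 2-fold, the range being -1.76 to -1.39.

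Cdkn2d encodes p19Ink4d, an Ink4 protein that varies through the cell cycle. Its signal was 14424 ± 1442 in KO and 16086 ± 1609 in WT (1 spot each, software error), so the intervals overlapped. The log2 difference was -0.17, and after normexp correction it was 0.06, or -0.16 with aberrant backgrounds replaced. This was the smallest difference of the 7 genes, and 34.8% of named genes were as far apart in that direction.

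**Figure D2:**
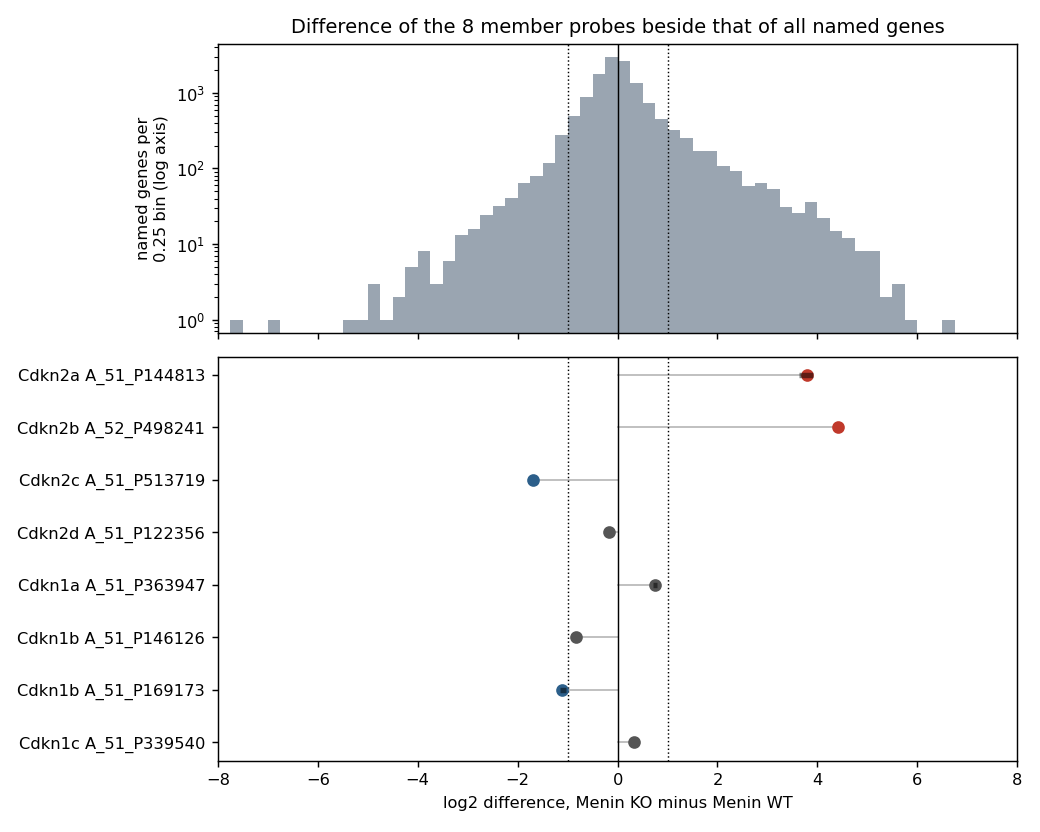
Top, number of named genes (log axis) per bin of 0.25 in log2 difference, Menin KO minus Menin WT, for 13510 genes. Bottom, the 8 member probes on the same axis, with dark bars for the range over repeated spots and dotted lines at 2-fold. Cdkn2b (4.41) and Cdkn2a (3.78) lie in the right tail, Cdkn2c (-1.69) and the second Cdkn1b probe (-1.10) lie left of the dotted line, and the other 4 probes lie between.

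Cdkn1a encodes p21, the Cip/Kip inhibitor best known as a target of p53. Its probe (A_51_P363947) had 9 usable spots in KO and 8 in WT after flagged spots were removed. They ran from 12199 to 12715 with a median of 12427 in KO, and from 7089 to 7624 with a median of 7261 in WT. No spot value was shared between the arrays. The mean was 12414 ± 204 in KO and 7290 ± 203 in WT (SD over spots), a 1.69-fold higher level in KO. The log2 difference of 0.76 varied from 0.71 to 0.80 over 8 spot pairs (SD 0.03), so it exceeded the spot scatter although it stayed below the 2-fold limit. Among named genes 14.1% were as far apart in that direction. Trp53, which encodes p53, had 1874 in KO and 2125 in WT (log2 difference -0.19), and Mdm2, its ubiquitin ligase and target, had 3119.6 in KO and 2011 in WT (0.62).

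Cdkn1b encodes p27, the inhibitor that T cells must degrade to leave quiescence, and was read by 2 probes. The brighter probe (A_51_P146126), printed once, gave 430 ± 43.0 in KO and 755 ± 75.6 in WT (software error), a 1.77-fold lower level in KO (log2 difference -0.83). The other probe (A_51_P169173) had 10 spots from 198 to 226 with a median of 215 in KO, and from 422 to 468 with a median of 456 in WT. Both probes were lower in KO. The repeated spots did not overlap between the arrays, which sets the difference against scatter on the glass only. On the second probe the mean was 213 ± 8.39 in KO and 454 ± 13.0 in WT (SD, 10 spots of 1 array each), 2.15-fold lower in KO. Its log2 difference of -1.10 varied from -1.15 to -1.03 over spots (SD 0.04). The 2 probes therefore fell on opposite sides of the 2-fold limit while having the same sign, and the gene counted as between because the brighter probe stood for it. The second probe was itself under 2-fold after normexp (-0.98), after loess on level (-0.99) and after normexp with aberrant backgrounds replaced (-0.90).

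Cdkn1c encodes p57, a Cip/Kip inhibitor expressed from the maternal allele of an imprinted domain. Its single spot gave 198 ± 19.9 in KO and 157 ± 16.0 in WT (software error), 1.25-fold higher in KO. The log2 difference was 0.32, and after normexp correction it was -0.22. With aberrant backgrounds replaced it was 0.18, so its direction turned only under normexp with the backgrounds as given. Among named genes 26.0% were at least as far apart in that direction.

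Set by family, the 4 Ink4 genes spanned log2 differences from -1.69 to 4.41, with 2 at least 2-fold higher, 1 lower and 1 between. The 3 Cip/Kip genes spanned -0.83 to 0.76, all between. Genes within either family had both signs. The median over the 7 genes was 0.32, which is the value of Cdkn1c, read on 1 spot of each array. Over the 8 member probes the median was 0.08, and over all named genes it was -0.01. Across the family, 4 genes were above 0 and 3 below.

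The genes flanking each member were examined next. Of 24 protein-coding neighbours, the 2 nearest named ones on each side of a member in the RefSeq order, 16 had a value. Of these 1 was at least 2-fold higher (10.8% of all named genes were), 2 were lower (5.14%) and 13 lay between. Beside Cdkn2a and Cdkn2b, the methionine salvage gene Mtap had 1093 in KO and 910.3 in WT (log2 difference 0.25), while Ifne, Dmrta1 and Zfp352 were not well above background on either array. Mtap was thus the 1 flanking gene of Cdkn2a and Cdkn2b with a value, and it was less than 2-fold apart. Beside Cdkn1b, Crebl2 had 351 in KO and 789 in WT (2.27-fold lower, and -0.997 on the log2 scale after normexp) and the orphan receptor gene Gpr19 had 138 in KO and 243 in WT (log2 difference -0.83), both with the sign of Cdkn1b. On the other side of it the helicase gene Ddx47 had 4502 in KO and 4869.6 in WT (-0.13). Beside Cdkn1c, Phlda2, another maternally expressed gene of the same imprinted domain, had 394 in KO and 18.0 in WT, a 21.7-fold higher level. Its log2 difference was 4.44, or 1.31 after normexp and 2.31 with aberrant backgrounds replaced. With the mean over its 2 probes in place of the brighter one, the log2 difference was 3.42. The WT signal of the brighter probe was near the lowest signal well above background on that array (14.0). Ap1m2, beside Cdkn2d, had 73.3 in KO and 156 in WT (2.14-fold lower, and under 2-fold after loess on level, at -0.97, and after normexp with aberrant backgrounds replaced, at -0.73).

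The kinases and cyclins listed as partners of these inhibitors were mostly lower or close to equal. The list also holds the CDK-activating pair Cdk7 (log2 difference -0.02) and Ccnh (-0.41), which is not a direct target of them. Of 13 measured partners none was at least 2-fold higher (10.8% of all named genes were) and 3 were lower (5.14%), while 10 stayed within 2-fold. Their median log2 difference was -0.41. The lower ones were Ccna2, cyclin A2 of S phase and mitosis (6743 in KO and 18407 in WT, 2.75-fold), Ccnb2, cyclin B2 (16560.3 in KO and 36006 in WT, 2.19-fold), and Cdk1, the mitotic kinase (2811 in KO and 5691 in WT, 2.04-fold). The other Cdk1 probe gave a log2 difference of -0.49, and after normexp Ccnb2 (-0.90) and Cdk1 (-0.77) were under 2-fold, as Cdk1 was after loess on level (-0.98) and once aberrant backgrounds had been replaced (-0.97). The Ink4 targets Cdk4 (log2 difference -0.25) and Cdk6 (0.10, with -0.42 at the lower end of its probes) lay between. So did the D-type cyclins Ccnd2 (0.34) and Ccnd3 (0.20), and Ccnd1 had no named probe. Cdk2, the chief Cip/Kip target, was dim, with 51.9 in KO and 78.7 in WT (-0.61). The cyclin E genes Ccne1 (0.18) and Ccne2 (-0.60) also lay between. Ccna2, Ccnb1 and Cdk1 are also on the list of dividing cell markers below.

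Further down the pathway, 1 of 13 pocket protein and E2F genes was at least 2-fold lower (5.14% of all named genes were) and none higher (10.8%). Their median was -0.35. The lower one was Rbl1, the pocket protein of cycling cells, with 1108 in KO and 2691 in WT (2.45-fold). Its relative Rbl2, the pocket protein of resting cells, had 798 in KO and 451 in WT (log2 difference 0.81), and Rb1 had -0.27. The E2F genes E2f1 (-0.38), E2f2 (-0.75), E2f6 (-0.17), E2f7 (-0.86) and E2f8 (-0.83) were below 0, while E2f4 (0.36) and E2f5 (0.66) were above 0. E2f3 had -0.35 on its brightest probe and 0.35 at the upper end of its probes.

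Regulators of the Ink4 and Cip/Kip genes were taken as a list of 60, of which 58 had a value. At least 2-fold higher were 3 (10.8% of all named genes were) and lower 4 (5.14% of all named genes), and 50 were within 2-fold. The remaining gene, Foxo3, was read on 1 array and its bound was under 2-fold. The median was -0.24. None of 15 Polycomb genes, whose products repress Cdkn2a and Cdkn2b, was 2-fold apart at the 75th percentile scaling (15.9% of all named genes were). Of these 15, 13 were below 0 (50.5% of all named genes), with a median of -0.31. Of the 4 largest, Ezh2 passed the limit with median centring (-1.02) and Pcgf2 after loess on level (1.03). Ezh2, the histone methyltransferase of the complex in dividing cells, had 2571 in KO and 4885 in WT (log2 difference -0.94), Ezh1, its relative in resting cells, 458 in KO and 290.4 in WT (0.65), and Rnf2 676 in KO and 1049 in WT (-0.65). Bmi1, the classic Cdkn2a repressor, had 576 in KO and 648 in WT (-0.18). The dim Pcgf2 had 40.8 in KO and 20.9 in WT (0.95). Its sign turned after normexp, at -0.82, but not with aberrant backgrounds replaced, at 0.13. Of 6 measured trithorax genes, which include Men1, none other than Men1 was 2-fold apart. The H3K27 and H3K36 demethylase genes Kdm6a (-0.21), Kdm6b (-0.43) and Kdm2b (0.09, with -0.72 on another probe) were also within 2-fold.

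Among 24 transcription factors that act on these genes, 3 were at least 2-fold higher in KO (10.8% of all named genes were) and 3 lower (5.14%). Id2 (27808 in KO and 6633 in WT, 4.15-fold), Klf4 (1043 in KO and 252 in WT, 4.10-fold) and Jun (356 in KO and 148 in WT, 2.39-fold) were higher. Jun was under 2-fold after normexp (log2 difference 0.54, or 0.96 with aberrant backgrounds replaced). Id proteins hold back E proteins and Ets factors, and Klf4 is an activator of Cdkn1a. Bach2 (604 in KO and 4643 in WT, 7.76-fold), Id3 (608 in KO and 2383 in WT, 3.95-fold) and Bcl6 (142 in KO and 463 in WT, 3.29-fold) were lower. Bcl6 is a transcriptional repressor that has Cdkn1a among its targets. Smad2, Smad3 and Smad4, which carry the TGF-β signal known to induce Cdkn2b, had log2 differences of -0.18 (Smad2), -0.86 (Smad3, with 0.34 on another probe) and -0.27 (Smad4). Myc, a repressor of Cdkn2b and Cdkn1a, had -0.05.

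**Figure D3:**
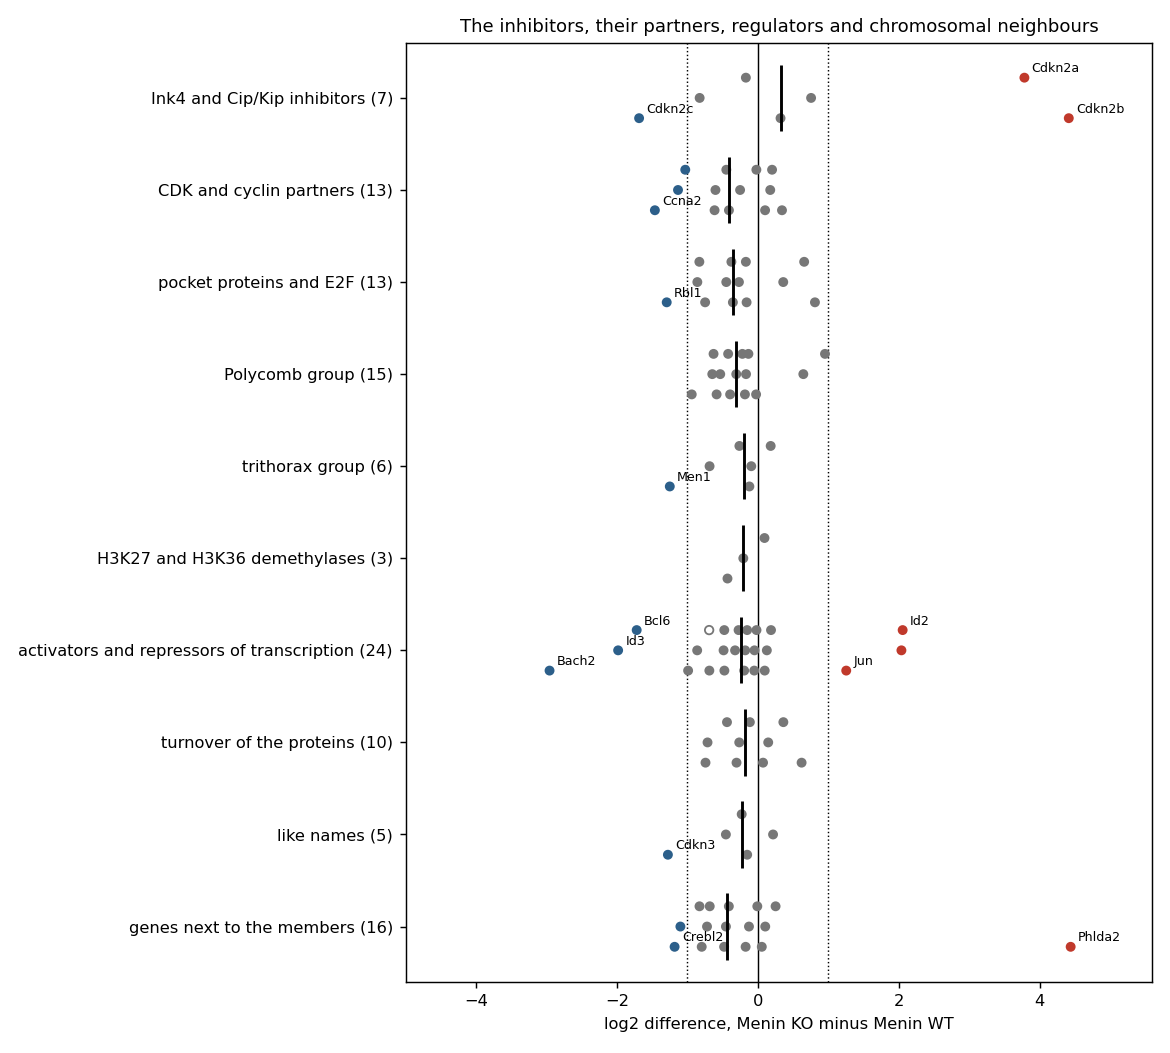
Log2 difference, Menin KO minus Menin WT, of each measured gene of the 7 inhibitors and of 9 lists (number measured in brackets). Filled points were well above background on both arrays, open points are bounds, black bars are medians and dotted lines mark 2-fold. Cdkn2a and Cdkn2b stand far right of the other inhibitors, and the Polycomb genes lie within the dotted lines.

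Markers of other cells and of division were read on the same 2 arrays. Of all named genes, 10.8% were at least 2-fold higher in KO, 5.14% were at least 2-fold lower and 50.5% were below 0. All 12 markers of dividing cells were below 0 in KO, 8 of them at least 2-fold lower, with a summed signal of 94986 in KO and 187873 in WT. The CD8 marker Cd8a had 3213 in KO and 312 in WT. Sums of signals below cover every listed gene with a probe, and counts cover the genes with a value or a bound. The sum over 6 genes of natural killer and innate T cells was 9148 in KO and 2314 in WT, with 4 of 6 past 2-fold upwards. Over 6 mast cell and basophil genes it was 654 in KO and 106.5 in WT (3 of 5 higher), and over 6 B cell genes 2257 in KO and 1266 in WT (1 of 5 higher). Macrophage and monocyte genes were split, with a sum over 8 genes of 693 in KO and 373 in WT and a median log2 difference of 0.002. Of 7 measured, Cd14 (2.86) and the bounds of Adgre1 (2.34) and Fcgr3 (3.25) were past 2-fold, C1qb was near 0, and Csf1r (-0.39), Mpeg1 (-0.64) and the bound of Lyz2 (-0.92) were below 0. The sum over 5 stromal genes was 186 in KO and 175 in WT, and none of the 3 measured was 2-fold apart. The defining markers Pax5, C1qa, Ms4a2, Dcn and Pdgfra were not well above background on either array. The part of these markers in the differences of Cdkn2a, Cdkn2b and Cdkn2c was not tested. In RNA from a whole culture, fewer cells of a type and less RNA per cell cannot be told apart.

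**Figure D4:**
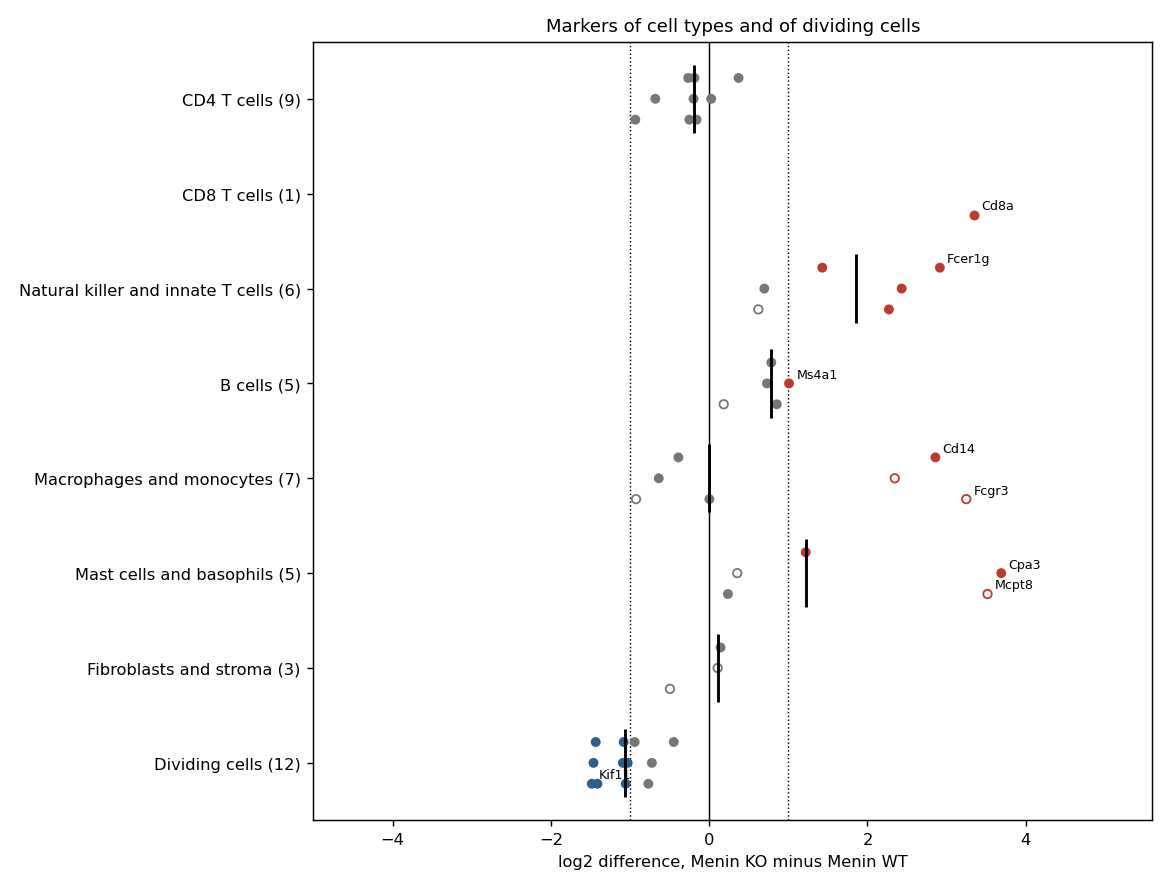
Log2 difference, Menin KO minus Menin WT, of each measured marker of 7 cell types and of dividing cells (number measured in brackets). Filled points were well above background on both arrays, open points are bounds and black bars are medians. All 12 markers of dividing cells lie left of 0, and Cd8a lies at 3.35.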

How the data were processed

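The intensity values used are the processed signals the authors deposited for each spot. Per the file headers they were made with Agilent Feature Extraction (10.7 in the submitters' processing notes), are background-subtracted, detrended and linear, and were not scaled between arrays. The probe annotation is on mm9. The authors' deposited value table holds log2 values, and set against the scanner values each column differed by 1 fixed amount, to within 0.01 for 99.7% of probes on either array, so scale, centring and direction are known (column medians -3.90 in KO and -3.97 in WT). Per the labels, 500 ng of total RNA was labelled with Cy3.

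Non-control spots without outlier flags were used (103 left out on KO, 115 on WT, none saturated). Log2 signals were centred on the 75th percentile of their own array and averaged over a probe's spots. On KO 63.5% of these spots and on WT 59.5% were well above background, and the number of arrays limits the precision. Names came from RefSeq transcripts of GRCm38.p6, which gave 1 symbol for 27050 probes, several for 0 and none for 14124. A gene took its brightest probe well above background on at least 1 array. A probe above background on 1 array got a bound, its dim side being set no lower than that array's weakest reliable signal. The size rule was 2-fold, with no test.

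The members and lists were chosen with earlier results of these data known. Genes named are every member probe, Men1, and from each list of partners, pocket proteins and E2F, regulators, like names and neighbours those at least 2-fold apart or else the 4 largest. Markers are given as lists, and the single markers named were chosen after their values were seen. Other names in the text (such as Mtap, Gpr19, Bmi1, Trp53, Mdm2, the Smads, Rbl2, Cdk4 and the D-type cyclins) were added for their role or position after their values were seen. No gene was named for likeness of pattern, since 2 arrays give 1 difference a gene. Alternatives comprised normexp (offset 50) on the median spot and local background signals, 4 scalings, the authors' table, probe and dim-spot rules, kept flags, and 1.5-fold and 4-fold limits. Normexp with local backgrounds over 200 replaced (6 spots on WT, 0 on KO) was chosen after seeing the data. The scaling, averaging and choice of probe were tested on data simulated from the WT array with known shifts. Both simulated arrays had the same background flags and no normexp was run, so bounds and normexp were not tested there. Software was Python 3.11.15, pandas 2.3.3, R 4.3.3 and limma 3.58.1.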

Additional observations from a re-analysis of the deposited data

How the results depend on the processing

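Under the 13 alternatives, Cdkn2a and Cdkn2b stayed at least 2-fold higher (lowest log2 differences 2.36 and 3.29, with normexp; 2.97 and 3.75 with its aberrant backgrounds replaced), also at the 4-fold limit, and Cdkn2c stayed lower at every setting but was not 4-fold apart. Normexp was run with an offset of 50 added to every signal, and the part of this offset in the smaller values was not tested. The sign of Cdkn1c turned with normexp (-0.22), as did that of Cdkn2d (0.06). With its aberrant backgrounds replaced, both kept the main sign (0.18 and -0.16). The number of member genes lower was 2 at the 1.5-fold limit and 0 at the 4-fold limit, and the number of member probes lower was 1 after normexp, 1 with backgrounds replaced, 1 after loess and 0 at the 4-fold limit. With normexp the median of the cyclin and kinase partners was -0.18, 7 regulators were lower, and the median of the protein turnover genes was 0.066 and that of the mast cell and basophil markers -0.11. With backgrounds replaced the partner median was -0.41, 5 regulators were lower, and the other 2 medians were -0.15 and 0.86. With no filter on dim probes 1 partner and 2 neighbours were higher, and the number of neighbours lower was 1 after loess and 1 with backgrounds replaced. Over all named genes, 601 were higher and 1682 lower after normexp (26.3% higher, against 67.8%). The counts were 760 and 369 with backgrounds replaced (67.3% higher), and 2121 and 1113 with no filter on dim probes. No paired analysis was possible because there is 1 array a genotype. Spot scatter and the software's error bound the precision of single signals, and neither covers mice or cultures.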

Other observations

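Genes whose names resemble those of the inhibitors, though their proteins belong to neither family, were read as well. Cdkn3, a phosphatase that acts on Cdk2 and is made in dividing cells, had a signal of 4552 in KO and 10932 in WT, 2.42-fold lower in KO (log2 differences from -1.31 to -1.28 over its probes). The other 4 lay between the 2-fold limits: Cdkn2aip, whose product binds p19Arf, had 97.4 in KO and 113 in WT (-0.23), Cdkn2aipnl 2825 in KO and 3110.3 in WT (-0.15), Cdk2ap1 9097 in KO and 7765 in WT (0.22) and Cdk2ap2 6531 in KO and 8865 in WT (-0.45).

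Genes for the turnover of the inhibitor proteins were also within 2-fold, all 10 that were measured (15.9% of all named genes were at least 2-fold apart). Cks1b, the cofactor that lets the Skp2 ligase recognise p27, had 13372 in KO and 22182 in WT (log2 difference -0.74), and Dtl, which directs the breakdown of p21 in S phase, had 1974 in KO and 3210.1 in WT (-0.71). Fbxw7, which marks cyclin E for breakdown, had 592 in KO and 796 in WT (-0.44). Skp2 itself had no named probe.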
